A study of Rattus norvegicus with 10 samples.

Results

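Transcripts of 35 enzymes and carriers of mitochondrial fuel use were followed in rat left ventricle on day 3 after gene transfer, in 5 samples that received GATA-4 and 5 that received LacZ. The GATA-4 protein binds DNA through zinc fingers and regulates genes of heart muscle cells, whereas LacZ, coding for the beta-galactosidase of bacteria, was the control gene. Both groups were male Sprague-Dawley rats of 250 to 300 g, and no other genotype or treatment is named. Groups rest on the source label of each sample, because all 10 titles name GATA-4. The sources used here do not give the vector, the site of delivery or the age of the animals.

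The genes belong to the Krebs cycle, to the carriers and aminotransferases that feed it, and to the breakdown of branched-chain amino acids and ketone bodies. They are found by gene symbol. Of the 35, 34 had a probe set that names no other gene, and all 34 passed the filter on dim probe sets. Dlat was not analysed here. The 34 are part of 10688 genes tested among 14217 named on the array, each read by its brightest single-gene probe set. Values are log2 intensities after quantile normalization, and a gene is said to have risen or fallen only where limma, a linear model fitted over all probe sets, gave a Benjamini-Hochberg adjusted p under 0.05.

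The Krebs cycle burns acetyl-CoA in the mitochondrial matrix and passes its electrons to the respiratory chain as NADH and FADH2. Leucine, isoleucine and valine share their opening steps, a reversible transamination followed by an irreversible oxidation by the branched-chain 2-oxoacid dehydrogenase complex, and then follow separate routes to acetyl-CoA, acetoacetate or succinyl-CoA. The heart takes up ketone bodies and turns them into acetyl-CoA with enzymes of the same compartment, and all of these routes meet in the cycle.

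After GATA-4 transfer 14 of the 34 genes fell and 0 rose, where 2.66% of all tested genes fell and 3.71% rose. In limma 21 of the 34 had an unadjusted p under 0.05. The share of all tested genes at this unadjusted threshold was not taken, here or for the unadjusted counts below. The 2.66% and 3.71% are for the adjusted p and do not serve as that share. The falls were small, from 1.12-fold to 1.43-fold, with adjusted p-values from 0.00644 to 0.0483. They comprised Idh2, Idh3b, Idh3g, Dld, Suclg1 and Sucla2 of the cycle, Glud1 and Mpc1 of its supply, Bckdhb, Dbt, Hibch, Hibadh and Pcca of branched-chain breakdown, and Acat1 of ketone use. The difference of GATA-4 minus LacZ was below 0 in 32 of the 34 genes, as it was in 52.6% of all tested genes. The median difference was -0.25 on the log2 scale, against -0.02 over all tested genes. In 12 of the 34 every GATA-4 array lay below every LacZ array, where 5.10% of tested genes had this order. The opposite order occurred in 0 of the 34 and in 4.56% of tested genes. Idh2 and Mpc1 fell although their groups overlapped.

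**Figure D1:**
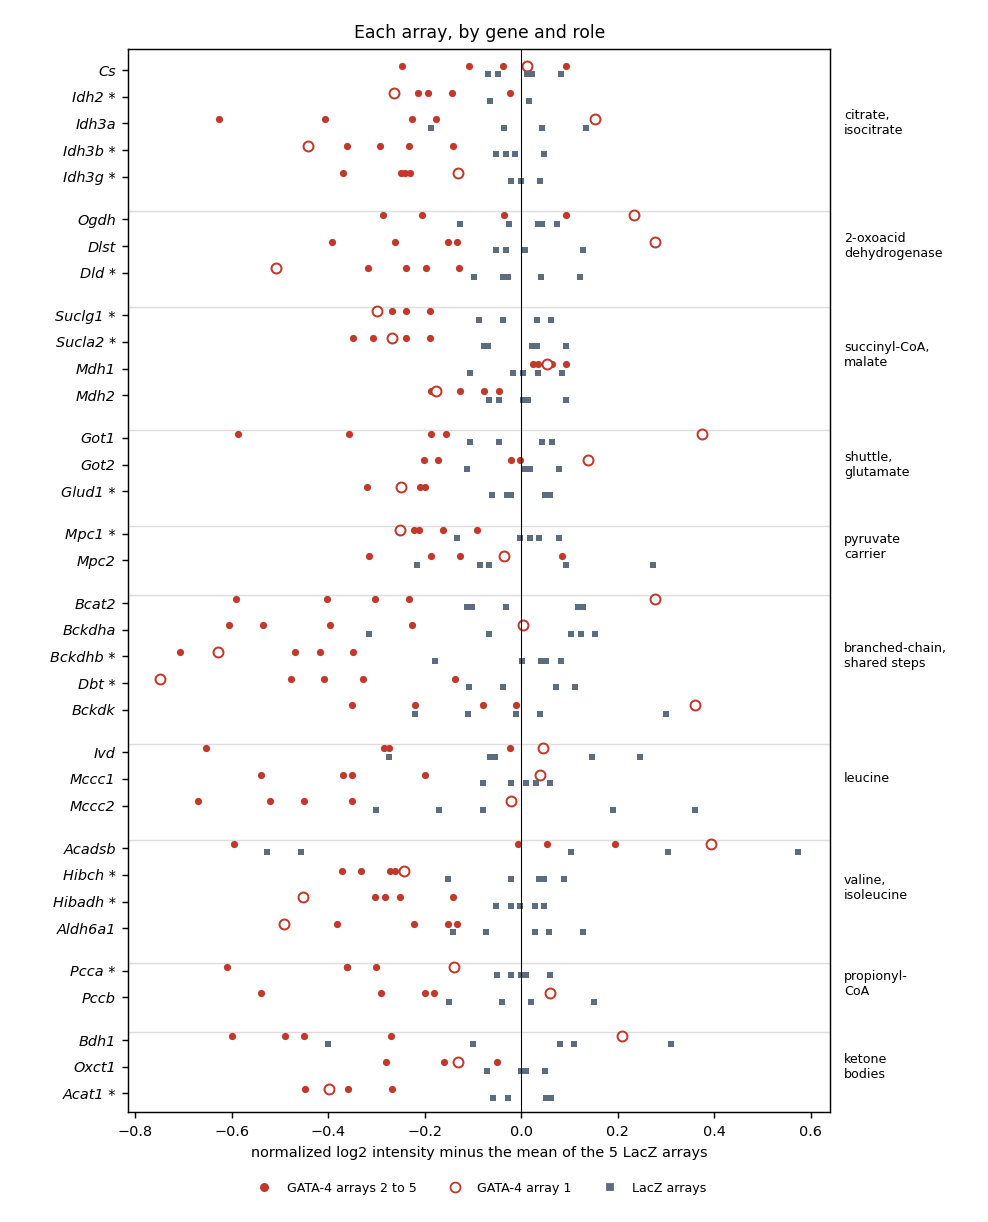
Normalized log2 intensity of each array minus the mean of the 5 LacZ arrays, for the 34 measured genes in their roles. Red circles are GATA-4 arrays, with array 1 open, grey squares are LacZ arrays, and an asterisk marks the 14 genes that fell. Most red points lie left of 0, and the open circle is the rightmost of the GATA-4 arrays in 17 genes.

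Arrays were not equal. The 2%-trimmed mean intensity as deposited was 142 on GATA-4 array 1, against 249 to 329 on GATA-4 arrays 2 to 5 and 249 to 314 on the LacZ arrays. The log2 ratio of 3' to middle control probe sets for GAPDH and beta-actin ran from 0.79 to 1.00 on GATA-4 arrays and from 0.92 to 1.25 on LacZ arrays. The log2 ratio of 3' to 5' control probe sets ran from 0.92 to 1.34 on GATA-4 arrays, within the 0.88 to 1.43 of the LacZ arrays. Gata4 itself read 11.44 ± 0.14 on GATA-4 arrays and 10.65 ± 0.13 on LacZ arrays (SD, n = 5 each), and rose 1.73-fold. Cardiomyocyte markers changed in 0 of 11 genes in limma, also 0 at an unadjusted p under 0.05. Their summed linear intensity was 111733 to 118325 on GATA-4 arrays and 114937 to 118750 on LacZ arrays. Most of them lay near the top of the scale, as did Myh7 at 13.70 with GATA-4 and 13.67 with LacZ. Differences there may be compressed, which was not tested, so these markers are not shown to be level. Of the 11, 7 differed in the negative direction and 4 in the positive, and the dimmest, Ryr2, differed by -0.14. Macrophage and monocyte markers rose in 6 of 12, with sums of 18724 to 23372 against 13776 to 15925. Neutrophil markers rose in 3 of 5, with sums of 2633 to 8392 against 1684 to 3164. Over all tested genes 3.71% rose. Fibroblast markers rose in 1 of 8, which was Fn1, with sums of 44757 to 52679 against 41895 to 48291, and endothelial markers changed in 0 of 6 (2 with an unadjusted p under 0.05), with sums of 5455 to 6911 against 6401 to 7093. No defining marker of macrophages was at 0, since all 12 passed the filter. Of 6 fat cell markers only Cidea passed the filter on dim probe sets, at a difference of -0.23 that did not pass. The fat cell sums, 2670 to 3733 on GATA-4 arrays and 3241 to 3703 on LacZ arrays, were nearly all Cidea, since Adipoq, Plin1, Cidec, Lep and Ucp1 were too dim to be tested. The part of these levels in the results on fuel genes was not tested. In pieces of ventricle, fewer cells of a type and less RNA per cell cannot be told apart.

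Promoter sequences are shown for the pair of genes with the smallest adjusted p-values, Acat1 and Bckdhb, and for Ivd, which shares with Bckdhb a GATA-type motif. Each window holds 250 bases before and 50 after the gene's start in RefSeq (build GRCr8) and reads 5' to 3' on the gene's strand. Capitals mark AGATAA, a form of the letters that GATA factors bind. Other forms were not searched and are not marked, such as tgataa in the Ivd window. Acat1 lies at chr8:62904993-62905292 on the minus strand, Bckdhb at chr8:93725027-93725326 on the plus strand and Ivd at chr3:126305334-126305633 on the plus strand.
Acat1: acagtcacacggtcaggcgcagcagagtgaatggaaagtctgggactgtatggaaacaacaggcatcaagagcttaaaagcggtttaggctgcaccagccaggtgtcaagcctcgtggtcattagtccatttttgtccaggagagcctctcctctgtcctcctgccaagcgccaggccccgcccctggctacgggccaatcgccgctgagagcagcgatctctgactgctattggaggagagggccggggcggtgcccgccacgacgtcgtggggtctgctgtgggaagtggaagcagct
Bckdhb: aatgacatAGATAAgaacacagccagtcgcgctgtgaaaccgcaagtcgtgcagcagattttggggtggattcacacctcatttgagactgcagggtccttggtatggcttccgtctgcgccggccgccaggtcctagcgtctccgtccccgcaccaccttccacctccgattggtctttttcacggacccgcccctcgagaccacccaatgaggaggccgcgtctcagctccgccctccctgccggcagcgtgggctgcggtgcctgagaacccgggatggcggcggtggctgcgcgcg
Ivd: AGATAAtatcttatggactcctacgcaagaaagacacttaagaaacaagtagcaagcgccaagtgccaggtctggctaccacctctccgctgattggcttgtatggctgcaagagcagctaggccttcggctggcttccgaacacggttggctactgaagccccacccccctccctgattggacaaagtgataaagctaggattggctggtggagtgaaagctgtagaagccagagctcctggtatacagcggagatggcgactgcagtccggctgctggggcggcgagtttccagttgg
AGATAA, searched on both strands, was present in 2 of the 31 windows given for these genes, those of Bckdhb and Ivd, with the first base of the match at -242 and -250 from the start site. It was present in 11.3% of 27457 windows of all genes. AAGGTCA, core letters of sites of estrogen-related receptors, which are known regulators of mitochondrial genes, was in 0 of the 31 windows and in 4.37% of all windows. Idh3a, Bckdha and Mccc2 had no window in the table. A match describes the letters only.

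Citrate synthase, which joins acetyl-CoA to oxaloacetate and opens the cycle, did not pass the threshold. Cs read 12.96, 12.84, 12.70, 13.04 and 12.91 on the GATA-4 arrays, against 12.88, 12.97, 13.03, 12.96 and 12.90 on the LacZ arrays, with 2 GATA-4 arrays below all LacZ arrays and 1 above all (difference -0.06, SE 0.06, limma adjusted p = 0.623). These values are of the brightest of 4 Cs probe sets. The other 3 differed by 0.11, -0.01 and -0.87, and none passed, the last of them dim, with 4 of 5 GATA-4 arrays below all LacZ arrays and an adjusted p of 0.106 in limma. The next oxidation, of isocitrate, is carried by an NAD-linked enzyme built from the products of Idh3a, Idh3b and Idh3g and by the NADP-linked Idh2. Idh3b stood at 12.55, 12.70, 12.76, 12.63 and 12.85 with GATA-4, against 12.94, 13.04, 12.98, 13.04 and 12.96 with LacZ. All 5 GATA-4 arrays lay below all LacZ arrays, and Idh3b fell 1.23-fold (difference -0.29, SE 0.06, adjusted p = 0.0144 in limma). Idh3g stood at 12.61, 12.49, 12.37, 12.50 and 12.51, against 12.72, 12.74, 12.74, 12.78 and 12.72 with LacZ. It too showed no overlap and fell 1.18-fold (adjusted p = 0.0169 in limma).

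Idh3a, the catalytic subunit, had a difference of similar size, -0.26, and did not pass (adjusted p = 0.234 in limma). Its values were 11.65, 10.87, 11.09, 11.32 and 11.27 with GATA-4, against 11.31, 11.46, 11.54, 11.63 and 11.54 with LacZ, and GATA-4 array 1 was higher than every LacZ array. Without that array the difference was -0.36, and Idh3a then passed limma. The log2 ratio of Idh3g to Idh3a averaged 1.26 ± 0.24 over GATA-4 arrays and 1.24 ± 0.11 over LacZ arrays (SD, n = 5), so the difference in this ratio lay within the spread.

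Idh2 read 13.44, 13.68, 13.56, 13.51 and 13.49 with GATA-4, against 13.72, 13.72, 13.72, 13.72 and 13.64 with LacZ. It fell 1.12-fold (limma adjusted p = 0.0483), with 4 of 5 GATA-4 arrays below all LacZ arrays and GATA-4 array 2 between them. Idh2 was the 2nd brightest probe set on LacZ arrays 1 to 4, which is why quantile normalization gave these arrays the same value. It stood 6th on LacZ array 5, and 3rd to 27th on the GATA-4 arrays, with the 3rd place on array 2. As deposited and when centred on the median, Idh2 did not pass (limma adjusted p = 0.993 and 0.326). Intensities as deposited were 9573 to 14147 with GATA-4, against 12715 to 14548 with LacZ. Near the top of the scale differences of such probe sets may be compressed, which was not tested.

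The 2-oxoglutarate dehydrogenase complex is made of the products of Ogdh, Dlst and Dld, of which Dld also serves the pyruvate and branched-chain complexes. Dld read 11.55, 11.82, 11.74, 11.93 and 11.86 with GATA-4, against 11.96, 12.02, 12.18, 12.10 and 12.03 with LacZ. The groups did not overlap and Dld fell 1.21-fold (difference -0.28, SE 0.07, limma adjusted p = 0.0482). Ogdh and Dlst, which are specific to this complex, differed by -0.04 and -0.13 with adjusted p-values of 0.822 and 0.494. On GATA-4 array 1 both exceeded all LacZ arrays, at 12.93 and 12.06, while Dld on that array was the lowest of all 10.

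Succinyl-CoA synthetase makes the nucleotide triphosphate of the cycle. Its shared alpha subunit Suclg1 read 12.10, 12.13, 12.10, 12.16 and 12.21 with GATA-4, against 12.36, 12.31, 12.43, 12.43 and 12.46 with LacZ. The ATP-forming beta subunit Sucla2 read 12.12, 12.08, 12.04, 12.20 and 12.15, against 12.31, 12.32, 12.42, 12.48 and 12.41 with LacZ. Neither gene's groups overlapped, GATA-4 array 1 included. Suclg1 fell 1.19-fold and Sucla2 1.20-fold, with adjusted p-values of 0.0157 and 0.0167 in limma. The log2 ratio between them was 0.02 ± 0.05 on GATA-4 arrays and 0.01 ± 0.04 on LacZ arrays (SD, n = 5), so both subunits fell by a like amount.

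Malate dehydrogenase ends the cycle in the matrix as Mdh2 and serves the malate-aspartate shuttle in the cytosol as Mdh1. Mdh2 read 12.64, 12.74, 12.63, 12.77 and 12.69 with GATA-4, against 12.75, 12.77, 12.83, 12.82 and 12.91 with LacZ. With 4 of 5 GATA-4 arrays below all LacZ arrays, it differed by -0.12 and did not pass (adjusted p = 0.162 in limma). Mdh1 read 13.15, 13.13, 13.16, 13.19 and 13.12, against 13.13, 12.99, 13.10, 13.08 and 13.18 with LacZ. That is a difference of 0.05 with overlapping groups, and the sign turned to -0.04 under centring on the median. Within each array the log2 ratio of Mdh2 to Mdh1 was -0.45 ± 0.06 on GATA-4 arrays and -0.28 ± 0.06 on LacZ arrays (SD, n = 5), with all 5 GATA-4 arrays below all LacZ arrays. The 2 probe sets of Mdh1 did not read alike, for the dimmer differed by -0.34 (limma adjusted p = 0.0999), so the ratio holds for the brighter one only.

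Aspartate aminotransferase completes the shuttle, as Got1 in the cytosol and Got2 in the matrix. Got1 read 12.72, 11.99, 11.76, 12.19 and 12.16 with GATA-4, against 12.24, 12.30, 12.41, 12.39 and 12.39 with LacZ. GATA-4 array 1 was the highest of all 10 arrays and the other 4 GATA-4 arrays were the lowest, and the gene did not pass (difference -0.18, limma adjusted p = 0.455). Without array 1 the difference was -0.31 and Got1 passed limma. Got2 differed by -0.05. Glud1, which releases 2-oxoglutarate from glutamate, read 11.05, 11.09, 10.98, 11.05 and 11.10 with GATA-4, against 11.27, 11.24, 11.36, 11.28 and 11.35 with LacZ. The groups did not overlap and it fell 1.19-fold (adjusted p = 0.0323 in limma). A second Glud1 probe set differed by -0.07 and did not pass. The mitochondrial pyruvate carrier is built from Mpc1 and Mpc2. Mpc1 read 12.58, 12.67, 12.62, 12.61 and 12.74, against 12.87, 12.83, 12.85, 12.70 and 12.91 with LacZ, and fell 1.14-fold (adjusted p = 0.0481 in limma). LacZ array 4, at 12.70, lay inside the range of the GATA-4 arrays. Mpc2 differed by -0.12 with wide overlap.

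The widest fall was in the branched-chain complex. Bckdhb, the beta subunit of its decarboxylase, read 10.38, 10.66, 10.59, 10.30 and 10.54 with GATA-4, against 11.01, 10.83, 11.09, 11.05 and 11.06 with LacZ. Every GATA-4 array lay below every LacZ array, and Bckdhb fell 1.43-fold (difference -0.51, SE 0.09, limma adjusted p = 0.00922). Dbt, the acyltransferase core, read 9.99, 10.60, 10.33, 10.26 and 10.41, against 10.70, 10.63, 10.70, 10.85 and 10.81 with LacZ. GATA-4 array 2 came close to the lowest LacZ array without reaching it, and Dbt fell 1.34-fold (adjusted p = 0.0363 in limma). Bckdha, the alpha subunit, differed by -0.35 (SE 0.14, adjusted p = 0.151), with 3 of 5 GATA-4 arrays below all LacZ arrays. The log2 ratio of Bckdhb to Bckdha was 1.64 ± 0.28 on GATA-4 arrays and 1.80 ± 0.24 on LacZ arrays (SD, n = 5), a difference within the spread.

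Bckdk, the kinase that switches the complex off, read 10.26, 9.89, 9.55, 9.82 and 9.68 with GATA-4, against 9.79, 9.94, 9.89, 10.20 and 9.68 with LacZ. Of the GATA-4 arrays 2 lay below all LacZ arrays and 1 above all, and the difference was -0.06 (SE 0.13, limma adjusted p = 0.828). Ppm1k, the phosphatase that switches it on again, was not among the 35 and was looked at after its values were seen. It differed by -0.32 with no overlap and an adjusted p of 0.0556 in limma. The step before, transamination, is made in the heart by the mitochondrial Bcat2, whose difference was -0.25 (adjusted p = 0.323). Bcat2 was highest of all 10 on GATA-4 array 1, at 10.03, while the other 4 GATA-4 arrays, at 9.16 to 9.52, lay below every LacZ array.

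**Figure D2:**
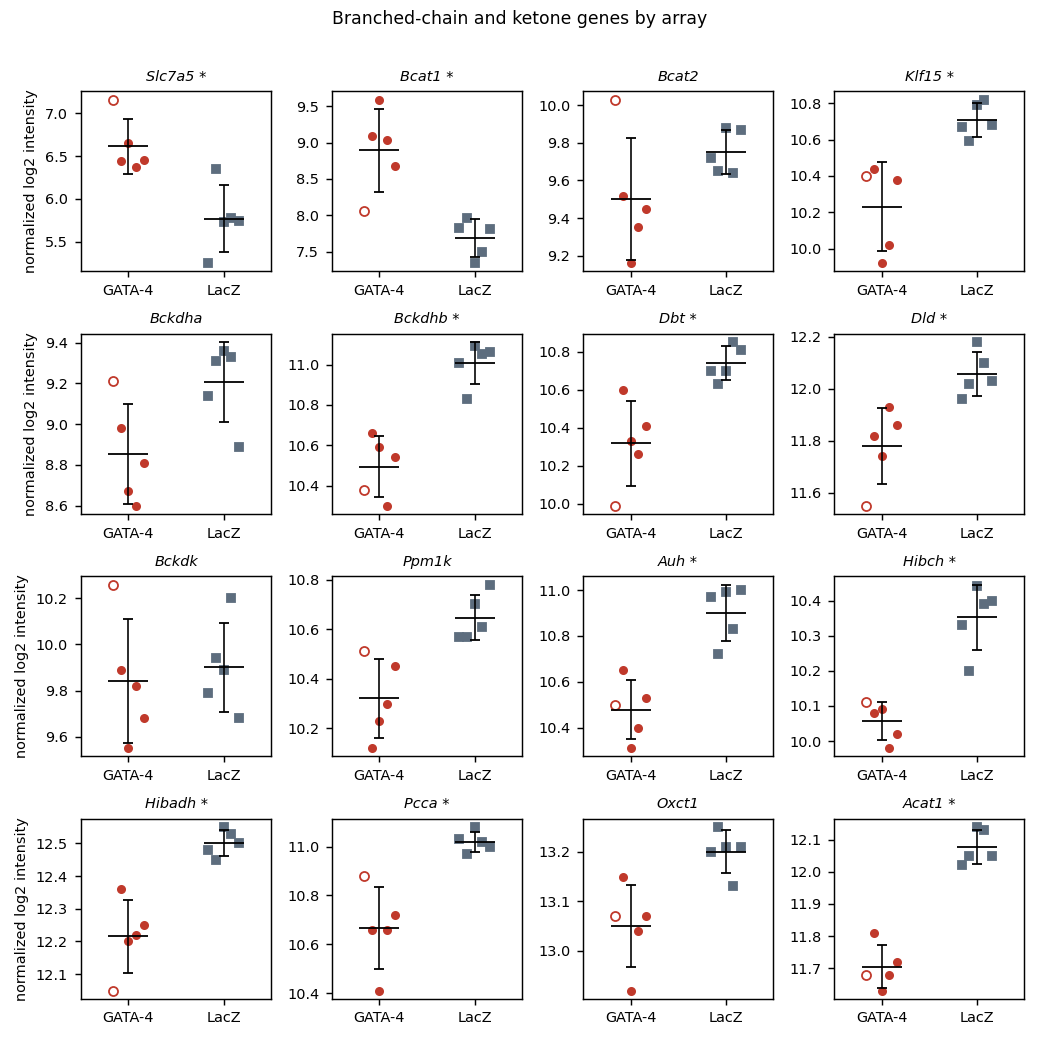
Normalized log2 intensity of 16 genes of branched-chain and ketone breakdown on each array, with GATA-4 (red, array 1 open) left of LacZ (grey). Black lines are group means with SD (n = 5 each), asterisks mark genes past the limma threshold, and each panel has its own axis range. Bcat1 and Slc7a5 are higher with GATA-4 on all 5 arrays, while Bckdhb, Hibadh, Pcca and Acat1 are lower on all 5.

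Beyond the complex the routes part. On the leucine route, 0 of 3 genes passed limma, and 2 had an unadjusted p under 0.05. Mccc2 and Mccc1, the subunits of methylcrotonyl-CoA carboxylase, differed by -0.40 and -0.28 with adjusted p-values of 0.123 and 0.12. In both, 4 of 5 GATA-4 arrays lay below all LacZ arrays, and in both array 1 was the exception. Ivd, isovaleryl-CoA dehydrogenase, differed by -0.24 with overlap. On the valine route Hibch, which frees 3-hydroxyisobutyrate from its CoA, read 10.11, 10.08, 10.09, 9.98 and 10.02 with GATA-4, against 10.33, 10.20, 10.44, 10.39 and 10.40 with LacZ. Hibadh, which oxidises it, read 12.05, 12.36, 12.20, 12.22 and 12.25, against 12.48, 12.45, 12.55, 12.53 and 12.50 with LacZ. Neither overlapped, and Hibch fell 1.23-fold and Hibadh 1.22-fold (limma adjusted p = 0.0414 and 0.0197).

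Aldh6a1, the next enzyme of valine breakdown, differed by -0.28 and did not pass (adjusted p = 0.0696 in limma). GATA-4 array 4 alone reached the LacZ range. Acadsb, which acts on the isoleucine route, was dim at 6.37 ± 0.37 on GATA-4 arrays and 6.36 ± 0.48 on LacZ arrays (SD, n = 5), and no difference was detectable at this spread. Isoleucine and valine end in propionyl-CoA, which is carboxylated by the products of Pcca and Pccb. Pcca read 10.88, 10.66, 10.41, 10.66 and 10.72 with GATA-4, against 11.03, 10.97, 11.08, 11.02 and 11.00 with LacZ, and fell 1.28-fold with no overlap (adjusted p = 0.0311 in limma). Its partner Pccb differed by -0.23 (adjusted p = 0.216), with GATA-4 array 1, at 10.89, inside the LacZ range and the other 4 below it.

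Among ketone enzymes the fall was clearest in Acat1, the mitochondrial thiolase that splits acetoacetyl-CoA and also ends isoleucine breakdown. Acat1 read 11.68, 11.81, 11.63, 11.68 and 11.72 with GATA-4, against 12.02, 12.05, 12.14, 12.13 and 12.05 with LacZ. The gap between the groups, from 11.81 to 12.02, exceeded the range within either group, and Acat1 fell 1.29-fold (difference -0.37, SE 0.05, limma adjusted p = 0.00644). Its second probe set fell too, by 0.50 on the log2 scale (SE 0.09, adjusted p = 0.0112 in limma), with no overlap. Of 10 tested second or further probe sets of these genes it was the only one past the threshold, while 9 of the 10 differed in the negative direction.

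Oxct1, which activates acetoacetate in the step before Acat1, read 13.07, 13.15, 12.92, 13.04 and 13.07 with GATA-4, against 13.20, 13.25, 13.21, 13.13 and 13.21 with LacZ. Only GATA-4 array 2 reached the LacZ range, and the difference of -0.15 missed the threshold (adjusted p = 0.0738 in limma). The log2 ratio of Acat1 to Oxct1 was -1.34 ± 0.04 on GATA-4 arrays and -1.12 ± 0.09 on LacZ arrays (SD, n = 5), with no overlap. Bdh1, which oxidises 3-hydroxybutyrate, read 9.20, 8.54, 8.39, 8.72 and 8.50, against 9.10, 8.89, 9.07, 9.30 and 8.59 with LacZ, and did not pass (difference -0.32, SE 0.17, adjusted p = 0.284). Ratios were formed for 14 pairs of partner enzymes or subunits chosen after the values were seen, so they are described without a test. Only Mdh2 to Mdh1 and Acat1 to Oxct1 had groups that did not overlap.

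**Figure D3:**
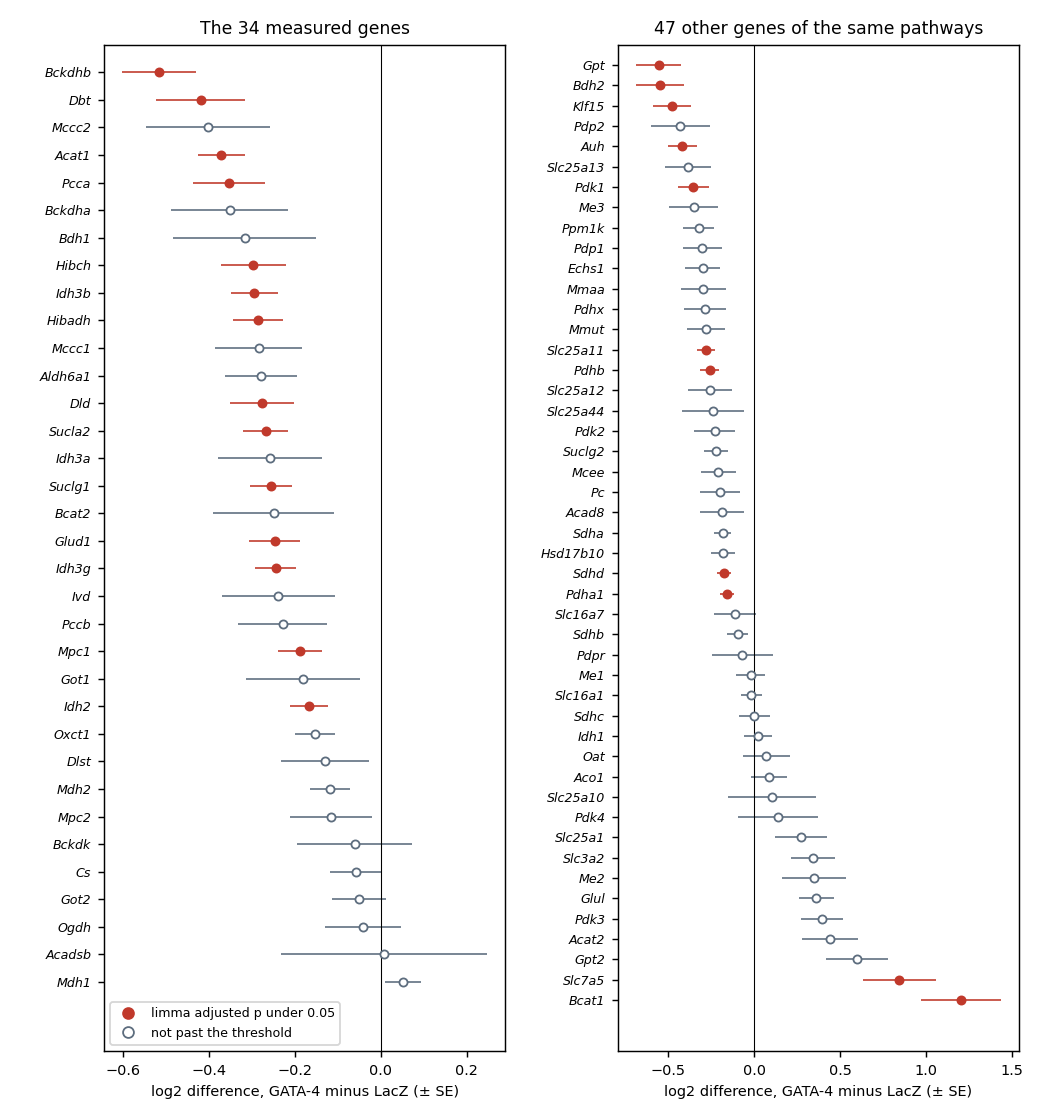
Log2 difference of GATA-4 minus LacZ with its limma SE (n = 5 each), for the 34 measured genes (left) and for 47 other genes of the same pathways (right, wider axis), ordered by size. Filled red points passed the limma threshold. The left panel holds 14 falls and 0 rises, and the right one 9 falls and 2 rises, with Bcat1 at 1.20.

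The other genes of these pathways, 47 tested of 54 listed, showed 9 falls and 2 rises in limma, where 2.66% of all tested genes fell and 3.71% rose, and a median difference of -0.18. Among other Krebs enzymes Sdhd, an anchor subunit of succinate dehydrogenase, fell by 0.18 on the log2 scale, and 1 of 7 fell in all. Sdha, the flavoprotein of the same complex, differed by -0.18 with no overlap and just missed (adjusted p = 0.0508 in limma). At the pyruvate dehydrogenase complex 3 of 14 genes fell: the decarboxylase subunits Pdha1 by 0.16 and Pdhb by 0.26 on the log2 scale, and Pdk1, a kinase that inhibits them, by 0.35 (limma adjusted p from 0.022 to 0.0455).

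Slc25a11, the 2-oxoglutarate and malate carrier of the shuttle, read 11.91, 11.91, 11.81, 11.87 and 11.87 with GATA-4, against 12.17, 12.05, 12.20, 12.25 and 12.12 with LacZ. It fell 1.22-fold with no overlap (adjusted p = 0.014 in limma). Gpt, alanine aminotransferase, fell 1.47-fold and Bdh2, a short-chain dehydrogenase once assigned to hydroxybutyrate, 1.46-fold (limma adjusted p = 0.0311 and 0.0426). The Gpt groups did not overlap. The Bdh2 groups did, with GATA-4 array 1, at 8.23, inside the LacZ range and the other 4 GATA-4 arrays below it. On the branched-chain side Auh, the hydratase of leucine breakdown, fell 1.34-fold (limma adjusted p = 0.02). Klf15, a transcription factor known in heart and muscle as an activator of branched-chain breakdown genes, read 10.40, 10.44, 9.92, 10.02 and 10.38 with GATA-4, against 10.67, 10.59, 10.79, 10.82 and 10.68 with LacZ. The groups did not overlap and it fell 1.39-fold (adjusted p = 0.0278 in limma).

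Of these 47 genes Bcat1 and Slc7a5 rose, a share near that of all tested genes. Bcat1, the cytosolic aminotransferase, read 8.06, 9.09, 9.59, 9.04 and 8.68 with GATA-4, against 7.82, 7.96, 7.34, 7.50 and 7.81 with LacZ. All GATA-4 arrays were above all LacZ arrays, though array 1 only narrowly, and Bcat1 rose 2.30-fold (difference 1.20, SE 0.23, limma adjusted p = 0.016). Slc7a5, a subunit of a plasma membrane carrier of large neutral amino acids, was dim, at 7.16, 6.44, 6.65, 6.37 and 6.45, against 5.25, 6.35, 5.73, 5.78 and 5.74 with LacZ. It rose about 1.80-fold (adjusted p = 0.0393 in limma). The mitochondrial Bcat2 differed in the other direction without passing, and the log2 ratio of Bcat1 to Bcat2 was -0.61 ± 0.88 on GATA-4 arrays and -2.06 ± 0.32 on LacZ arrays (SD, n = 5). On array 1 that ratio was -1.97, inside the LacZ range, and the other 4 GATA-4 arrays lay above it. Which cells of the ventricle carry the Bcat1 signal was not tested. Some macrophage and neutrophil markers rose between the groups as well, as given above, and their relation to Bcat1 by array was not tested.

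Markers of mitochondrial import, outer membrane and upkeep differed in the same direction as the fuel genes. Of 18 tested 3 fell, Immt and Chchd3 of the inner membrane organizing system and the fusion protein Mfn2, and 0 rose. Their median was -0.20, with 17 of 18 below 0. Over all tested genes 2.66% fell, 3.71% rose and 52.6% were below 0, with a median of -0.02. Summed linear intensities of that list were 52040 to 55323 on GATA-4 arrays and 59480 to 61489 on LacZ arrays. The sum over the 34 fuel genes was 121957 to 136152 on GATA-4 arrays and 143836 to 150990 on LacZ arrays. Array 1 had the highest of the 5 GATA-4 sums in both. Whether fuel genes differed more than these mitochondrial genes was not tested.

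GATA-4 array 1 often stood apart from the other 4 GATA-4 arrays. In 17 of the 34 genes this dim array was the highest of the GATA-4 arrays and in 7 the lowest. Of the 20 genes that did not pass, it was highest in 14, while of the 14 that fell it was highest in 3 and lowest in 6. The median deviation of the 34 genes from the LacZ mean was -0.09 on array 1 and -0.21, -0.35, -0.24 and -0.22 on GATA-4 arrays 2 to 5. The LacZ arrays lay between -0.05 and 0.05, which is near 0 by construction, since deviations were taken from their own mean. The part of array 1's low signal in this pattern was not tested.

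The number of falls rested on single arrays, while the median did not. Of the 34 genes 25 fell without GATA-4 array 1, the 14 among them, and 11, 7, 8 and 7 fell without GATA-4 arrays 2 to 5. Without LacZ arrays 1 to 5 the counts were 7, 8, 2, 8 and 6. The share of all tested genes that fell moved as well, from 2.66% as reported to 8.86% without GATA-4 array 1. It was 2.22%, 0.759%, 1.2% and 1.21% without GATA-4 arrays 2 to 5. Without LacZ arrays 1 to 5 it was 0.758%, 1.5%, 0.187%, 0.655% and 0.561%. The median difference of the 34 genes stayed between -0.26 and -0.22 in these 10 fits. Acat1 and Bckdhb passed in all 10. Idh3b, Idh3g, Suclg1 and Sucla2 missed in 1 of 10, without LacZ array 3, and Hibadh missed in 2, without LacZ array 3 or 5. The other 7 missed in 8 or 9 of the 10: Dbt, Glud1 and Idh2 passed only without GATA-4 array 1 or 2, Dld only without GATA-4 array 1 or 4, Hibch only without GATA-4 array 1 or LacZ array 2, Mpc1 only without GATA-4 array 1 or LacZ array 4, and Pcca only without GATA-4 array 1. Among the other pathway genes Slc25a11 and Bcat1 missed only without LacZ array 3, Pdhb without LacZ array 1, 3 or 4 and Auh without LacZ array 1, 3 or 5. Klf15 passed only without GATA-4 array 1, 2 or 5 or LacZ array 2, Gpt only without GATA-4 array 1 or 4 or LacZ array 2, Slc7a5 only without GATA-4 array 1 or LacZ array 2, Pdk1 only without GATA-4 array 1 or 4, Sdhd only without GATA-4 array 1 or 2, and Pdha1 and Bdh2 only without GATA-4 array 1. Leaving out a GATA-4 array whose values lie near those of LacZ raises such a count of itself, so the higher count without array 1 adds no support. With intensities as deposited, not normalized, 0 of the 34 passed limma, 7 had an unadjusted p under 0.05 and the median difference was -0.35. Without the intensity trend in limma 2 passed, Acat1 and Bckdhb, and with no filter on dim probe sets 7 did. Of all tested genes 0% fell as deposited, 0.87% without the trend and 1.12% with no filter.

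**Figure D4:**
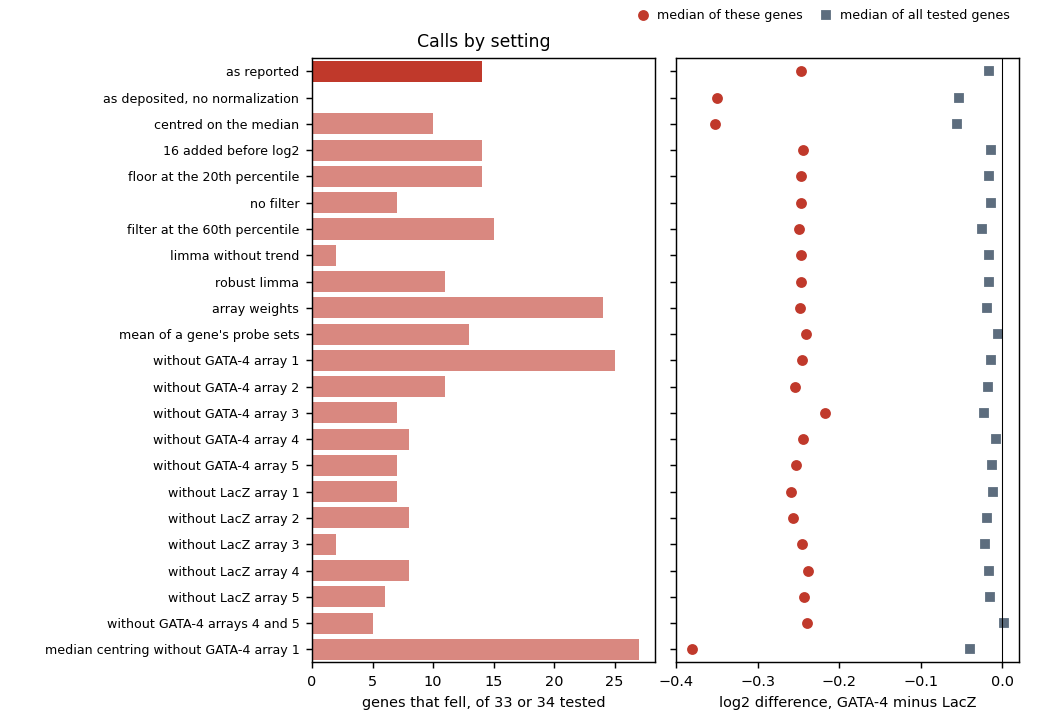
Left, bars give the number of the 34 genes that fell under each setting (33 tested with the filter at the 60th percentile). Right, the median log2 difference of GATA-4 minus LacZ over these genes (red circles) and over all tested genes (grey squares). Counts run from 0 to 27, while the red medians stay between -0.38 and -0.22. The share of all tested genes that fell, which is not drawn, ran from 0% to 9.44%.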

How the data were processed

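RNA of 10 left ventricle samples was measured on Affymetrix rat arrays. The authors deposited probe set intensities on a linear scale, and the submitters' processing notes name GCOS, the maker's scanning and analysis software. The sources used here give no version, algorithm or scaling. Of 31042 probe sets that are not controls, 20826 name 1 gene in GEO's platform annotation, with symbols matched by gene ID to a RefSeq table of assembly GRCr8, 436 name several and 9780 none.

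Intensities were taken to log2, quantile normalized and floored at a log2 of 0. The 18625 probe sets with a mean above the 40th percentile were fitted with limma 3.58.1 in R 4.3.3 (intensity trend, no covariates, two-sided) and adjusted by Benjamini-Hochberg over all of them. Array weights used statmod 1.5.0. On simulated data the fit recovered 0% of 1.25-fold, 34% of 1.5-fold, 66% of 2-fold and 96% of 3-fold changes. The simulated data gave 106 calls, against 988 probe sets called in the real data. The adjusted threshold was therefore stricter there, and these shares do not carry over to the genes reported. Small changes can still go uncalled. P-values set the difference between the groups against the spread between samples, and the labels name no animal for a sample. The number of arrays limits the precision.

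The genes and lists were chosen with earlier results of these data known, and no set test was made. Named genes are those past the threshold and, in each role list, those with the smallest p and the largest difference, with Bckdk and Bdh1. Values of further genes, the ratios, Ppm1k and the windows shown were chosen after their values were seen. Replicate numbers only name arrays. The alternatives changed normalization, added constant, floor, filter, variance model, array weights, probe set choice and arrays left out.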

Additional observations from a re-analysis of the deposited data

Results flagged for a closer look

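In groups of 5 arrays, a highest or lowest array was singled out where its gap to the nearest other, divided by the range of the group, exceeded 0.71. Among 90 groups checked (34 fuel genes and 11 changed genes of their pathways, each in both conditions) 3 were singled out, where chance gives about 5%.

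For Idh2 on the LacZ arrays the ratio was 1.000, as array 5 read 13.64 and the other 4 arrays shared the value 13.72 that quantile normalization gives to the 2nd brightest probe set. For Pdha1, the alpha subunit of pyruvate dehydrogenase, the ratio was 0.744 on the GATA-4 arrays, where array 1 read 12.70 and the others 12.82 to 12.86. On the LacZ arrays Pdha1 had a ratio of 0.735, where array 4 read 12.96 and the others 12.97.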

How the results depend on the processing

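Of the 34 genes 0 rose under any of the 22 alternatives. The number that fell, 14 as reported, was 0 with intensities as deposited, 7 with no filter, 2 without the trend in limma, 24 with array weights, 27 with median centring when GATA-4 array 1 was left out, 5 without GATA-4 arrays 4 and 5, and 2 to 25 with 1 array left out. It was 10 to 15 under the remaining 6 settings. Of all tested genes 2.66% fell as reported, 0% as deposited, 1.12% with no filter, 0.87% without the trend and 9.11% with array weights. The share was 9.44% with median centring without GATA-4 array 1, and 0.355% without GATA-4 arrays 4 and 5. It was 0.187% to 8.86% with 1 array left out, and 2.46% to 4.35% under the remaining 6 settings. The median difference, -0.25 as reported, was -0.35 as deposited and when centred on the median and -0.38 when centred without GATA-4 array 1, where the medians of all genes were -0.05, -0.06 and -0.04; it was -0.26 to -0.22 with 1 array left out. Of the other pathway genes 9 fell and 2 rose as reported. As deposited 0 fell and 0 rose, 4 and 1 with no filter, 2 and 1 without the trend, and 21 and 7 with array weights. The counts were 22 and 6 when centred without GATA-4 array 1, and 0 and 0 without GATA-4 arrays 4 and 5. With 1 array left out they were 0 to 20 and 0 to 7. Rises among all tested genes were 397 of 10688 as reported, 7 of 10690 as deposited, 278 of 14217 with no filter and 253 of 10688 without the trend. They were 1026 of 10688 with array weights, 809 of 10694 when centred without GATA-4 array 1 and 110 of 10691 without GATA-4 arrays 4 and 5. With 1 array left out they ran from 101 of 10694 to 1064 of 10696.

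Signs turned only in genes that did not pass as reported. The Mdh1 difference was -0.039 as deposited, -0.042 when centred on the median, -0.14 with the mean of its probe sets and -0.15 when centred without GATA-4 array 1. The Acadsb difference was -0.0093 as deposited, -0.012 when centred, -0.11 with array weights, -0.10 when centred without GATA-4 array 1, -0.0018 without GATA-4 arrays 4 and 5 and -0.12 to 0.16 with 1 array left out. With 1 array left out Ogdh ran from -0.11 to 0.021 and Bckdk from -0.17 to 0.013. The cause was not tested.

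A gene that did not pass is not shown to be level. Values near the top of the scale, as for Idh2 and Myh7, and dim ones, as for Acadsb and Slc7a5, are the least sure. No paired analysis was possible because no replicate number in the labels joins a GATA-4 sample to a LacZ sample.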
